A study of Homo sapiens with 16 samples.

Results

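The alpha-globin window is the stretch of chromosome 16 from 80 to 185 kb (GRCh38). It holds the alpha-like globin genes HBZ, HBM, HBA2, HBA1 and HBQ1 and all of NPRL3, the neighbouring gene whose introns carry most enhancers of the cluster. Every H3K27ac peak that shared at least 1 base with the window and had a -log10 q of at least 2, a q-value of 1% or less, was taken from 14 peak lists of K562 cells, a human chronic myelogenous leukemia line. This gave 730 of the 1065840 peaks in all lists, between 38 and 64 per list. The lowest -log10 q kept was 2.02 and the highest left out was 1.9987, and 52 deposited peaks of the window fell below the threshold.

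All 14 lists came from fixed chromatin of the same untreated line, immunoprecipitated with 1 anti-H3K27ac antibody. In the fixed arm, 0.25 µg of antibody was added to 7 amounts of DNA_chrom, doubling from 0.31 to 20 µg. DNA_chrom is the DNA measured directly in the chromatin input, and the amounts correspond to titers (antibody per chromatin relative to the optimum) of 32, 16, 8, 4, 2, 1 and 0.5. In the normalized arm the antibody was scaled to titer 1 at each of the same 7 amounts. Libraries are named by amount and titer, so 0.31-T32 is the smallest fixed reaction and 20-T1 the largest normalized one. Each condition is 1 library, and 10-T1a (fixed) and 10-T1b (normalized) are the same condition, so p-values measure only the spread between single libraries. Titer and chromatin amount cannot be told apart within the fixed arm. The arms were called against separate input libraries, and titer also cannot be told apart from input or preparation where the arms are compared.

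H3K27ac, acetylation of lysine 27 on histone H3, marks nucleosomes at active enhancers and promoters. In red cell precursors the alpha-like globin genes are switched on by distant enhancers, named HS for DNase hypersensitive site and numbered by their distance in kilobases upstream of HBZ, most of which lie inside introns of NPRL3. NPRL3 itself encodes a subunit of GATOR1, a complex that restrains nutrient signalling through mTORC1, and is expressed widely. K562 cells resemble erythroid and megakaryocytic precursors and express embryonic and fetal globins.

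As a check of the cell type, the erythroid and megakaryocytic marker genes GATA1, TAL1, LMO2, NFE2, KLF1, HBG1 and HBE1 each had a peak within 1 kb of the transcription start site (TSS) in at least 11 of the 14 lists. Of the genes of other lineages, CD3E, PAX5, ALB and NEUROD1 had none in any list, and RAG1 had one in all 14, with fold enrichments of 7.24 to 15.9. The lists held 64083 to 82143 peaks each, and the number of reads behind each peak is unknown from these files.

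The peaks of the window were spread unevenly along its gene map. Combined, the 14 lists covered 80.2% of the window in at least 1 list, 11.0% in all of them and left 19.8% without a peak. Coverage was densest from HS-48 to HS-10. The first part of the window, from 80000 to 102643 and mostly over NPRL3 introns, was covered at 11.7% to 40.9% per list, and none of its bases had a peak in all 14. From HBZ to the end, peaks stood mostly around the genes other than HBA2. When overlapping peaks of all lists were merged, the window held 35 regions, of which 15 (42.9%) had a peak in every list. Over the whole genome this was 10.8% of 170284 merged regions, which were not matched to the window in width. The longest merged region of the window ran over 10859 bp from 115393 to 126251 and includes HS-33. Only 619 of the 170284 regions were longer.

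**Figure D1:**
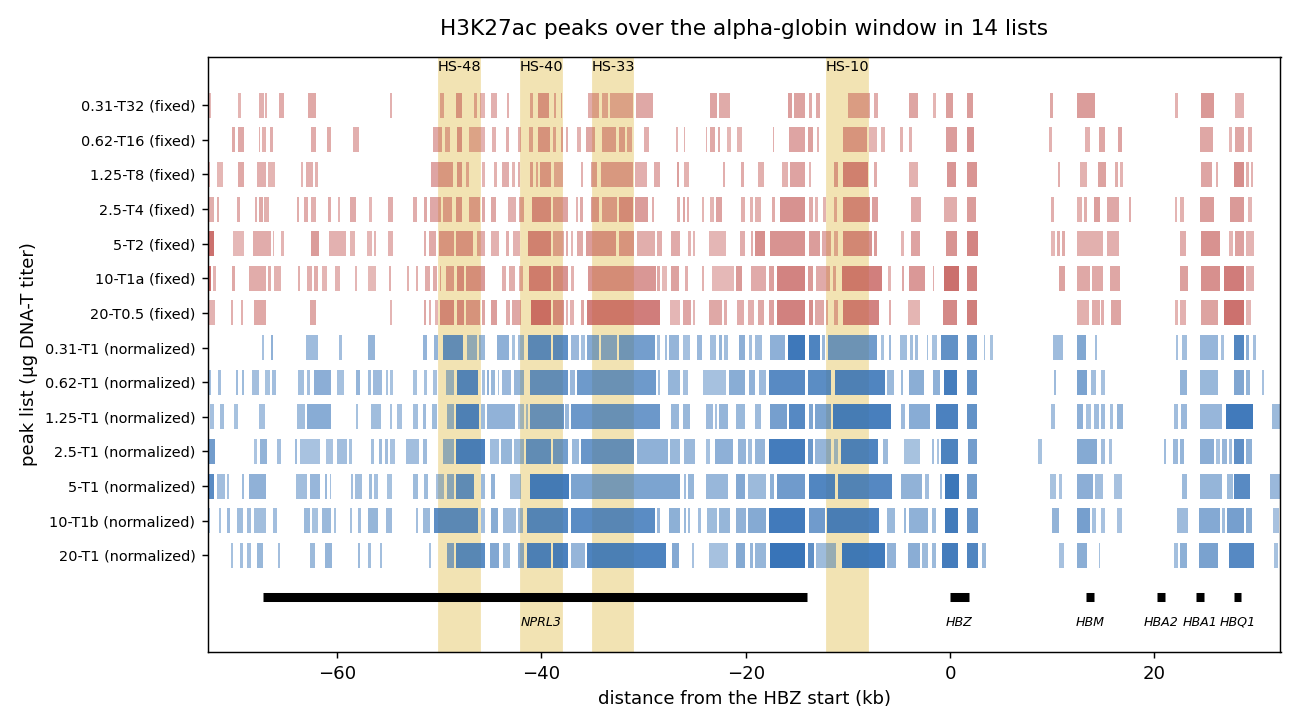
Peaks of the 14 lists (rows, fixed arm red and normalized arm blue) against the distance from the HBZ start in kb, with darker bars for higher fold enrichment, the 4 enhancer areas shaded and the genes as black bars. Peaks are densest from HS-48 to HS-10, sparser over the left end of NPRL3, and no list has a peak over the HBA2 start.

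The longest stretch without a peak in any list was 4488 bp long, from 156814 to 161301. It lies between HBZ and HBM, where it overlaps most of a pseudogene and an end of a long non-coding RNA gene. The second, of 3293 bp from 170329 to 173621, spans the start of HBA2. The third, of 1126 bp from 163926 to 165051, lies inside the pseudogene HBZP1. The fourth, of 1125 bp from 175905 to 177029, spans the start of HBA1. The longest stretch covered in all 14 lists was 1833 bp in the HS-10 area, from 142677 to 144509. The next were 1103 bp from 177233 to 178335, from inside HBA1 to beyond its downstream end, and 1003 bp from 137400 to 138402, inside NPRL3 next to its TSS.

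**Figure D2:**
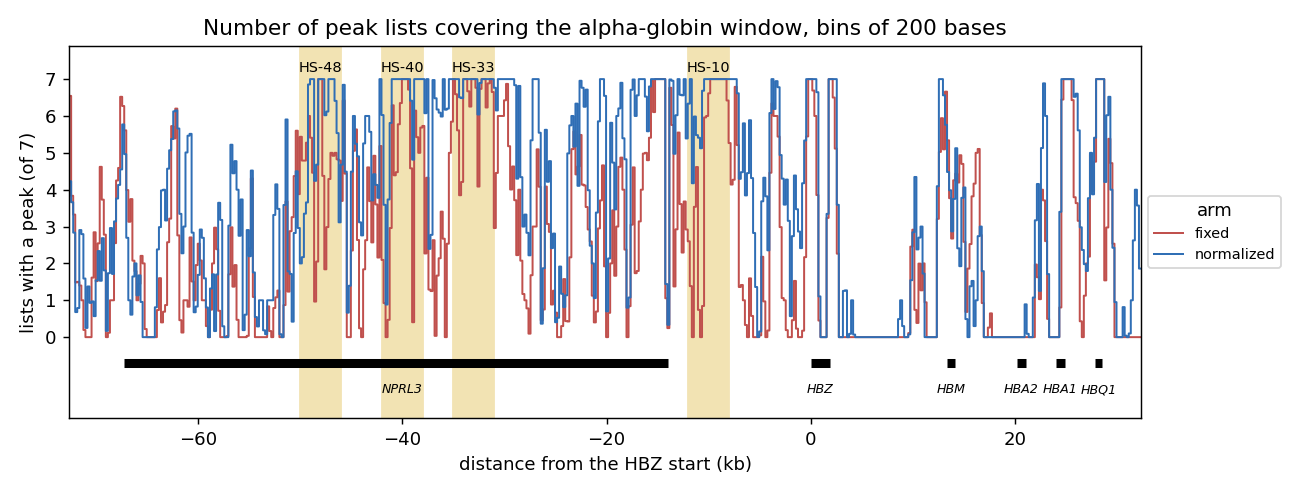
Number of lists with a peak in each bin of 200 bases, for the fixed (red) and normalized (blue) arms, against the distance from the HBZ start in kb, with enhancer areas shaded and genes as black bars. Both arms reach 7 of 7 lists in HS-48, HS-40, HS-33, HS-10, HBZ, the downstream end of HBA1 and HBQ1, and both stay at 0 over the HBA2 start.

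The study varied the titer to ask how it changes the ChIP-seq result, and the window as a whole was first compared on that question by the share of its bases under peaks. In the fixed arm this share was 24.5%, 27.6%, 30.0%, 38.7%, 48.9%, 50.3% and 44.1% from 0.31 to 20 µg, that is from titer 32 down to 0.5. In the normalized arm it was 45.0%, 53.2%, 55.6%, 55.5%, 57.4%, 57.1% and 48.5% at the same amounts. Among the fixed libraries, 5-T2 and 10-T1a lay within the normalized range and the others below it. The coefficient of variation was 27.8% in the fixed arm and 8.87% in the normalized arm. The whole lists moved alongside: per Mb covered genome-wide, the window held 731 to 832 covered bases in the fixed lists and 698 to 869 in the normalized ones, and the arms overlapped.

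Covered share was lower at higher titer in the fixed arm, with r = -0.905 against log2(titer) (exact permutation p = 0.00992) and rho = -0.893 (exact permutation p = 0.0123). Without the libraries of the highest and lowest titer r was -0.973. Relative to the bases covered by each whole list, the trend was no longer seen (r = -0.102, exact permutation p = 0.817). After Benjamini-Hochberg adjustment over the 9 tests made on the window, the permutation p was 0.0703, which did not pass 0.05, but without 20-T0.5 it was 0.025, with r = -0.972. The normalized arm gave r = 0.327 with log2(DNA_chrom) (exact permutation p = 0.469), rho = 0.393 (exact permutation p = 0.396) and r = 0.909 without the 2 extreme amounts. That value rested on single libraries: without 20-T1 it was 0.840 with an adjusted permutation p of 0.0446, and without 0.31-T1 it was -0.280. At equal amounts the normalized library covered more in 6 of 6 pairs, by 16.9 percentage points on average (SE 3.62), with an exact sign-flip permutation p of 0.031, the smallest that 6 pairs allow, and an adjusted p of 0.0703. Dividing the covered share by the genome share covered by each whole list gave ratios of 20.6 to 25.6. The mean difference of this ratio was 1.31, positive in 4 of 6 pairs (exact sign-flip permutation p = 0.156, adjusted p = 0.281). In percentage points of the window, the pair of the same condition differed by 6.80 in the same direction. Without the matching by amount, the exact permutation p of the 16.9 points was 0.00649 and its adjusted p 0.0446.

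The number of peaks in the window behaved differently. It was 38, 53, 49, 64, 55, 57 and 50 in the fixed arm and 57, 55, 50, 56, 48, 53 and 45 in the normalized arm, from 0.31 to 20 µg. The arms overlapped throughout, and the mean matched difference was 0.333 peaks (SE 4.10, exact sign-flip permutation p = 0.969, adjusted p = 0.969). Against log2(titer), r was -0.480 (exact permutation p = 0.283), rho was -0.464 (exact permutation p = 0.302) and r was -0.399 without the extremes, with an adjusted permutation p of 0.363. Without 0.31-T32 it was 0. Against log2(DNA_chrom) in the normalized arm, r was -0.725 (exact permutation p = 0.0712), rho was -0.750 (exact permutation p = 0.0663) and r was -0.282 without the extremes, with an adjusted permutation p of 0.128. The median width of a window peak was 409 to 765 bp in the fixed lists and 567 to 772.5 bp in the normalized lists, against 347 to 477 bp over whole lists.

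The strongest fold enrichment of the window, the MACS2 ratio of ChIP signal to local background, was 7.96, 11.0, 10.7, 9.75, 14.6, 15.1 and 14.6 in the fixed arm and 18.0, 16.9, 17.5, 17.2, 18.2, 17.5 and 18.8 in the normalized arm. Every normalized library lay above every fixed one. The coefficient of variation was 23.5% in the fixed arm and 3.57% in the normalized arm. Divided by the median of its list, the log2 value was 0.78 to 1.66 in the fixed arm and 1.84 to 1.97 in the normalized arm. By percentile in its own list, however, the strongest peak stood at 92.4 to 98.6 in the fixed arm. In the normalized arm it stood at 98.0 to 98.9, so the arms overlapped on that scale. In 0.62-T16, 5-T2 and 10-T1a the strongest peak was 1 that reaches in from the shared start region of MPG and RHBDF1 outside the window, and without it these lists gave 8.83, 11.3 and 14.8.

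On the log2 scale the fixed arm gave r = -0.874 with log2(titer) (exact permutation p = 0.0167), rho = -0.750 (exact permutation p = 0.0663) and r = -0.758 without the extremes. The adjusted permutation p was 0.0703, and without the peak at MPG it was 0.0286, with r = -0.946. The normalized arm gave r = 0.524 (exact permutation p = 0.227), rho = 0.429 (exact permutation p = 0.354) and r = 0.6202 without the extremes, with an adjusted permutation p of 0.340. The matched difference was 0.67 on the log2 scale (SE 0.13), a ratio of 1.59, positive in 6 of 6 pairs (exact sign-flip permutation p = 0.031, adjusted p = 0.0703). The pair of the same condition differed by 0.21. Without the matching by amount the exact permutation p was 0.00216 and its adjusted p 0.0195.

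**Figure D3:**
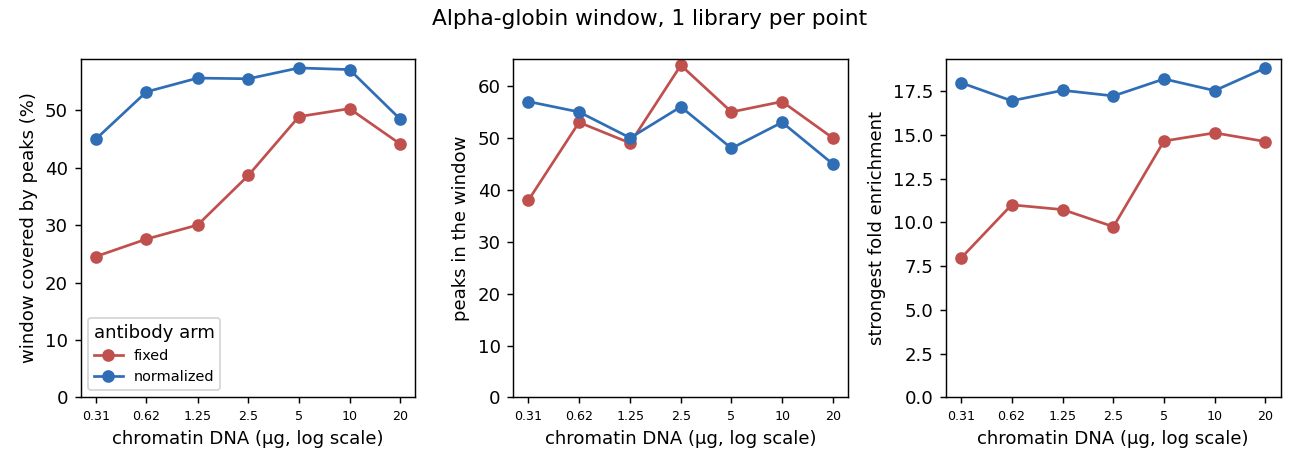
Share of the window covered (left), number of peaks (middle) and strongest fold enrichment (right) against chromatin DNA in µg on a log scale, 1 point per library, fixed arm red and normalized arm blue. Coverage and strongest fold enrichment lie higher in the normalized arm at each amount, up to 57.4% and 18.8, while the peak numbers of the arms cross.

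The members were then compared by the strongest peak within 1 kb of each TSS and within 2 kb of each enhancer centre, 48, 40, 33 and 10 kb upstream of the HBZ TSS. Of these 10 promoters and areas, 9 had such a peak in all 14 lists, the exception being HBA2. Each was tested inside the table of all 9174 protein-coding genes with a promoter peak in every list, or of all 24955 windows of 4 kb with a peak in every list, and p-values were adjusted over the table. Under this test, 69.3% of gene promoters and 55.8% of 4 kb windows changed with titer in the fixed arm, nearly all of them downward, 6355 of 6355 promoters and 13920 of 13933 windows. In the same direction, 2 of the 5 member promoters (40%) and 3 of the 4 areas (75%) passed. With each peak's percentile in its own list in place of fold enrichment, 0 promoters and 0 windows passed the exact permutation test, and all 5 of these calls were lost.

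With log2(DNA_chrom) in the normalized arm, 0% of promoters and 0% of windows passed under the exact permutation test, and 1069 promoters and 2857 windows had an unadjusted p of 0.05 or less. The matched difference also gave 0% in both tables, with 2861 promoters and 7858 windows at 0.031, the smallest p of the exact sign-flip permutation test. At that p the adjusted values are 0.100 for promoters and 0.0992 for windows, so no single member could pass it. The difference between the arms in slope over log2(DNA_chrom), tested by exact permutation of the arms within amounts, likewise gave 0% in both tables.

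HS-48 lies in an NPRL3 intron and is the most distant of the 4 areas, from 102644 to 106644. Its strongest peak had a fold enrichment between 6.87 and 9.20 in the fixed arm (median 7.24) and between 12.5 and 16.1 in the normalized arm (median 13.9). The arms did not overlap, as was so for 6.01% of all 4 kb windows with the normalized arm on top. The summit of its strongest peak fell within the area in 14 of 14 lists.

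The fixed-arm trend of HS-48 did not pass, with r = -0.793 (exact permutation p = 0.0373, adjusted p = 0.0613), rho = -0.714 (exact permutation p = 0.0881) and r = -0.612 without the extremes. Ranked against the other peaks of its own list, it stood at the 87.9th percentile in 0.31-T32 and at the 80.0th in 20-T0.5, opposite in direction to its fold enrichment (r = 0.831 of percentile with log2(titer), exact permutation p = 0.019, adjusted p = 0.266). The matched log2 difference was 0.94 (SE 0.092, 6 of 6 pairs positive). At equal titer and amount, 10-T1b exceeded 10-T1a by 0.61.

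HS-40, the major enhancer of the alpha-like globin genes, covers 110644 to 114644. In the fixed arm its fold enrichment was 7.28, 7.08, 6.71, 9.21, 10.3, 11.4 and 14.2 from 0.31 to 20 µg. In the normalized arm it was 13.7, 12.5, 11.8, 12.7, 17.0, 14.6 and 16.2 at the same amounts. The 3 fixed libraries with the least chromatin were the lowest of all 14, and 20-T0.5 reached into the normalized range. HS-40 fell with titer, with r = -0.934 (exact permutation p = 0.00437, adjusted p = 0.0180), rho = -0.857 (exact permutation p = 0.0238) and r = -0.943 without the extremes, a value 0.886 times as high for each doubling of the titer. The call was lost without 2.5-T4 (adjusted permutation p = 0.0575) and without 20-T0.5 (adjusted permutation p = 0.0776).

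HS-33 covers 117644 to 121644. Its fold enrichment ranged from 5.03 to 12.7 in the fixed arm (median 7.58) and from 9.38 to 15.8 in the normalized arm (median 11.6), with overlap between the arms. It fell with titer, with r = -0.923 (exact permutation p = 0.00317, adjusted p = 0.0157), rho = -0.893 (exact permutation p = 0.0123) and r = -0.808 without the extremes. The call was lost without 0.31-T32 (adjusted permutation p = 0.0578) and without 20-T0.5 (adjusted permutation p = 0.0666).

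Width set HS-33 apart from the other areas. Of its bases, 64.1% were covered in all 14 lists, against 45.8% for HS-10, 29.3% for HS-40 and 10.6% for HS-48. In 6 of the 7 normalized lists and in 10-T1a and 20-T0.5, peaks covered 100% of the area. The longest of these, in 5-T1, measured 10637 bp. In 0.31-T32 the longest peak anywhere in the window was 2263 bp. In 0.62-T16 it was 3393 bp, but this peak ran from 76732 to 80124 and lay almost wholly before the window.

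HS-10 lies outside NPRL3, between its promoter and HBZ, from 140644 to 144644. Its fold enrichment was 5.06, 6.73, 10.7, 9.75, 9.19, 12.2 and 11.6 in the fixed arm and 10.9, 15.6, 16.7, 15.6, 15.3, 16.2 and 17.7 in the normalized arm. In both arms the library of 0.31 µg was the lowest. In 5-T1 its strongest peak was the same peak as that of the NPRL3 promoter. HS-10 fell with titer, with r = -0.853 (exact permutation p = 0.0107, adjusted p = 0.0280), rho = -0.821 (exact permutation p = 0.0341) and r = -0.738 without the extremes. The call was lost on leaving out any fixed library except that of titer 8, with adjusted permutation p of 0.0618 to 0.114 over 0.31-T32, 0.62-T16, 2.5-T4, 5-T2, 10-T1a and 20-T0.5.

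Across the areas, the mean matched log2 differences were 0.65 for HS-40 (SE 0.11), 0.68 for HS-33 (SE 0.14) and 0.83 for HS-10 (SE 0.11), beside the 0.94 of HS-48, each positive in 6 of 6 pairs. The median over all 4 kb windows was 0.38, with quartiles of 0.13 and 0.62. The 4 areas also stood higher among the peaks of their own lists in the normalized arm, by 5.75 percentile points for HS-40, 10.5 for HS-10, 11.2 for HS-33 and 11.4 for HS-48, again in 6 of 6 pairs, where the median window gained 3.05. None of these differences passed adjustment (adjusted exact permutation p = 0.139 for the percentiles).

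Trends with chromatin amount in the normalized arm did not pass for any area. HS-40 had r = 0.662 (exact permutation p = 0.111, adjusted p = 0.517), HS-33 r = 0.634 (exact permutation p = 0.124, adjusted p = 0.532), HS-10 r = 0.711 (exact permutation p = 0.0431, adjusted p = 0.423) and HS-48 r = -0.0209 (exact permutation p = 0.962, adjusted p = 0.989). The Spearman values were 0.643, 0.643 and 0.643 (exact permutation p = 0.139 for each) and 0.0357 (exact permutation p = 0.963). Without the 2 extreme amounts r was 0.717, 0.233, -0.0389 and -0.599.

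NPRL3 runs on the minus strand from 85386 to 138673, so its promoter faces the globin genes. The 250 reference bases upstream of its TSS (chr16:138674-138923, minus strand, GRCh38.p14, from RefSeq) are shown because the strongest peak of the window lay beside this TSS in 4 of the 7 normalized lists. In these lists that peak ended inside NPRL3, so the printed bases are not under it. Capitals mark CGCNNGCG, the inner part of the palindrome that nuclear respiratory factor NRF1 recognises:
NPRL3: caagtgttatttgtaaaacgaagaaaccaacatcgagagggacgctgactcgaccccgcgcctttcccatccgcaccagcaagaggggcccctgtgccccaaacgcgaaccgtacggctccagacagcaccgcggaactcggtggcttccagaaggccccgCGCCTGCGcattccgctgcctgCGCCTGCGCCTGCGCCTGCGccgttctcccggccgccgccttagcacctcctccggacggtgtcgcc

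CGCNNGCG matched 4 times, from base 89 to base 48 upstream of the TSS, with 3 of the matches overlapping. It was added after the sequence had been seen, and 20.6% of the 35093 promoters of 300 bases in the RefSeq table hold it on either strand. The motifs chosen for erythroid promoters were AGATAA (in 10.3% of the promoters) and TGATAA (7.53%), both forms of the GATA element, CCAAT (34.6%), the TATA box TATAAA (11.5%) and the KLF element CACCC (59.9%). No match to any of them was found on either strand in the NPRL3 promoter. GC content upstream of the TSS was 66.4%.

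No list had a peak over the NPRL3 TSS itself, and the nearest peak edge lay 106 to 151 bp away in all 14. Within the printed bases, peaks covered between 100 and 145 bp, so this promoter had acetylated peaks on both sides of a gap. In 10-T1b, 53.0% of the 9174 genes had a peak over the TSS itself.

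The strongest NPRL3 promoter peak had a fold enrichment of 6.42, 6.76, 6.38, 9.27, 9.05, 11.8 and 12.0 in the fixed arm and 18.0, 14.4, 14.7, 17.2, 15.3, 17.5 and 18.8 in the normalized arm. All normalized libraries lay above all fixed ones, as did 4.95% of all gene promoters. NPRL3 was the only one of the 5 member promoters for which this was so. It fell with titer, with r = -0.940 (exact permutation p = 0.00556, adjusted p = 0.0164), rho = -0.857 (exact permutation p = 0.0238) and r = -0.919 without the extremes. Without 20-T0.5 the adjusted permutation p was 0.0565. The matched log2 difference was 1.01 (SE 0.13), a ratio of 2.02, and 10-T1b exceeded 10-T1a by 0.57.

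HBZ, the embryonic zeta chain, runs from 152644 to 154503 on the plus strand and was the only member with a peak over its TSS in all 14 lists. Its promoter peak was the highest of the members by median over all lists. The fixed arm gave 7.09, 7.37, 8.45, 4.77, 8.96, 14.8 and 10.6, and the normalized arm 13.2, 16.9, 16.2, 15.9, 18.2, 17.4 and 17.2. The only overlap was 10-T1a, which lay above 0.31-T1. The library 2.5-T4 was the lowest of all 14, and its peak stood at the 52.4th percentile of its list.

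HBZ did not pass the fixed-arm test, with r = -0.580 (exact permutation p = 0.167, adjusted p = 0.184), rho = -0.750 (exact permutation p = 0.0663) and r = -0.565 without the extremes. Taking peaks within 5 kb of the TSS instead, it did, with r = -0.825 and an adjusted permutation p of 0.0428. The matched log2 difference was 1.08 (SE 0.15), a ratio of 2.12 and the highest of the members. In the normalized arm r with log2(DNA_chrom) was 0.716 (exact permutation p = 0.053, adjusted p = 0.436), rho was 0.714 (exact permutation p = 0.0881) and r was 0.498 without the extremes. Both ends of the gene carried a peak, and in 6 of the 7 fixed lists the stronger peak of the gene and its surroundings was at the downstream end. Over the gene and 1 kb on both sides, 24.5% of the bases were in no list. Repeats of its sequence elsewhere, for instance in the pseudogene HBZP1, were not counted, so the part of mapping was not tested.

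HBM, the mu chain, is an alpha-like globin gene of low output and runs from 165978 to 166764. Of the motifs chosen for erythroid promoters, its upstream sequence (chr16:165728-165977, plus strand, GRCh38.p14, from RefSeq) matched only CACCC, read here on the other strand. That motif occurs in 59.9% of the 35093 promoters. Capitals mark that match, and also the shorter words GATAA and TATAA, which were added after the sequence had been seen:
HBM: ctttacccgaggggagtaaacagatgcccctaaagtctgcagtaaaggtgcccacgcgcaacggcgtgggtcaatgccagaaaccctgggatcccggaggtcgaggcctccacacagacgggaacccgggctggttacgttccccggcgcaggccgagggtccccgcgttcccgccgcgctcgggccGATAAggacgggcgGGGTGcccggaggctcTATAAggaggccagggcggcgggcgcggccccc

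The 3 matches lie at bases 63 to 59 (GATAA), 49 to 45 (CACCC) and 33 to 29 (TATAA) upstream of the TSS. The word GATAA lies within both longer GATA forms and TATAA within the longer TATA box, and they occur in 22.7% and 20.4% of the 35093 promoters. The other 4 motifs chosen for erythroid promoters had no match here. Peaks covered all 250 bases in 10 lists and none of them in 1. The promoters of the other members were not in the sequence table.

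The HBM promoter peak was low beside most other members, but stood at the 72.0th to 85.5th percentile of the normalized lists. Its fold enrichment was 7.45, 4.13, 4.03, 7.28, 4.28, 5.69 and 4.99 in the fixed arm and 8.52, 9.52, 6.91, 8.12, 7.18, 10.2 and 7.30 in the normalized arm. The fixed values showed no order by titer, with r = 0.148 (exact permutation p = 0.738, adjusted p = 0.749), rho = 0.0357 (exact permutation p = 0.963) and r = -0.432 without the extremes, and without 0.31-T32 r was -0.338. The normalized arm gave r = -0.148 (exact permutation p = 0.748, adjusted p = 0.913), rho = -0.107 (exact permutation p = 0.840) and r = 0.165 without the extremes. Normalized libraries were higher in 6 of 6 pairs, by 0.61 on the log2 scale (SE 0.16). The pair of the same condition differed by 0.84, more than this mean.

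HBA2 and HBA1 encode the same adult alpha chain from near-identical copies, HBA2 from 172876 to 173710 and HBA1 from 176680 to 177522. Only read pairs with at least 1 uniquely placed end were kept by the authors, so values at these genes are uncertain. In a GRCh37 copy of the chromosome, 74.8% of the 51-base words of HBA2 and 74.0% of those of HBA1, the length of a read, occurred more than once in the first 500 kb, against 0% for HBQ1.

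HBA2 had a peak within 1 kb of its TSS in 1 list, 2.5-T1, with a fold enrichment of 4.57. Over the gene and 1 kb on both sides, 6 lists had a peak, 3 in each arm, with fold enrichments of 3.46 to 5.13, and 83.7% of the bases were in no list. The nearest peak edge lay 746 to 3431 bp from the TSS. HBA2 was therefore in no test.

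HBA1 had no peak over its TSS in any list either, with the nearest edge 350 to 553 bp away. The stretch around its start without a peak in any list held 85.7% repeated words, counted at the same distances from the HBA1 start in GRCh37, and the stretch covered in all 14 lists from inside the gene to beyond its downstream end held 11.0%. For the stretch without a peak around HBA2 the share was 40.3%. The part of mapping in these gaps was not tested.

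The HBA1 values therefore come from peaks beside the start, mostly the downstream one. They were 7.96, 5.78, 6.04, 7.49, 9.10, 9.61 and 6.47 in the fixed arm and 5.61, 6.34, 5.63, 7.47, 5.99, 8.38 and 9.66 in the normalized arm. The arms overlapped across nearly their whole range. HBA1 was the only tested member with a negative matched difference, -0.083 on the log2 scale (SE 0.18, positive in 2 of 6 pairs, exact sign-flip permutation p = 0.719, adjusted p = 0.783), where the median gene promoter had 0.36. With peaks within 5 kb of the TSS, HBA1 took the same values as HBQ1, with a matched difference of 0.63 and a fixed-arm r of -0.821 (adjusted exact permutation p = 0.0391).

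In its own list HBA1 stood 9.18 percentile points lower in the normalized arm (positive in 1 of 6 pairs, exact sign-flip permutation p = 0.219, adjusted p = 0.410), and 6.86% of all gene promoters had a smaller difference. Against titer, r was -0.313 (exact permutation p = 0.473, adjusted p = 0.488), rho was -0.357 (exact permutation p = 0.444) and r was -0.977 without the extremes. In the normalized arm r was 0.820 (exact permutation p = 0.029, adjusted p = 0.387), rho was 0.821 (exact permutation p = 0.0341) and r was 0.596 without the extremes. Its correlations over the 14 libraries with the other 8 tested members were -0.18 to 0.13, given as a description of libraries that share arms and titers.

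HBQ1, the theta chain, the last gene of the cluster and one whose protein has no known role in hemoglobin, runs from 180459 to 181179. It had the widest spread of the members in the fixed arm, with 4.12, 5.78, 9.86, 7.87, 6.72, 12.7 and 14.6 in the fixed arm and 15.0, 8.85, 17.5, 13.4, 14.4, 10.3 and 14.7 in the normalized arm. The coefficient of variation was 43.1% and 22.1%. At 10 µg, where both arms have titer 1, the fixed library was the higher one, by 0.31 on the log2 scale, and at 20 µg the arms gave 14.6 and 14.7.

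HBQ1 fell with titer, with r = -0.863 (exact permutation p = 0.0163, adjusted p = 0.0299), rho = -0.857 (exact permutation p = 0.0238) and r = -0.605 without the extremes. Without 0.31-T32, 0.62-T16, 2.5-T4, 10-T1a or 20-T0.5 the call was lost, with adjusted permutation p of 0.0615 to 0.122. The matched log2 difference was 0.86 (SE 0.25, 6 of 6 pairs positive). In the normalized arm r was 0.00648 (exact permutation p = 0.990, adjusted p = 0.997), rho was -0.143 (exact permutation p = 0.783) and r was 0.0567 without the extremes. NPRL3 had r = 0.415 there (exact permutation p = 0.338, adjusted p = 0.692), rho = 0.429 (exact permutation p = 0.354) and r = 0.757 without the extremes.

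**Figure D4:**
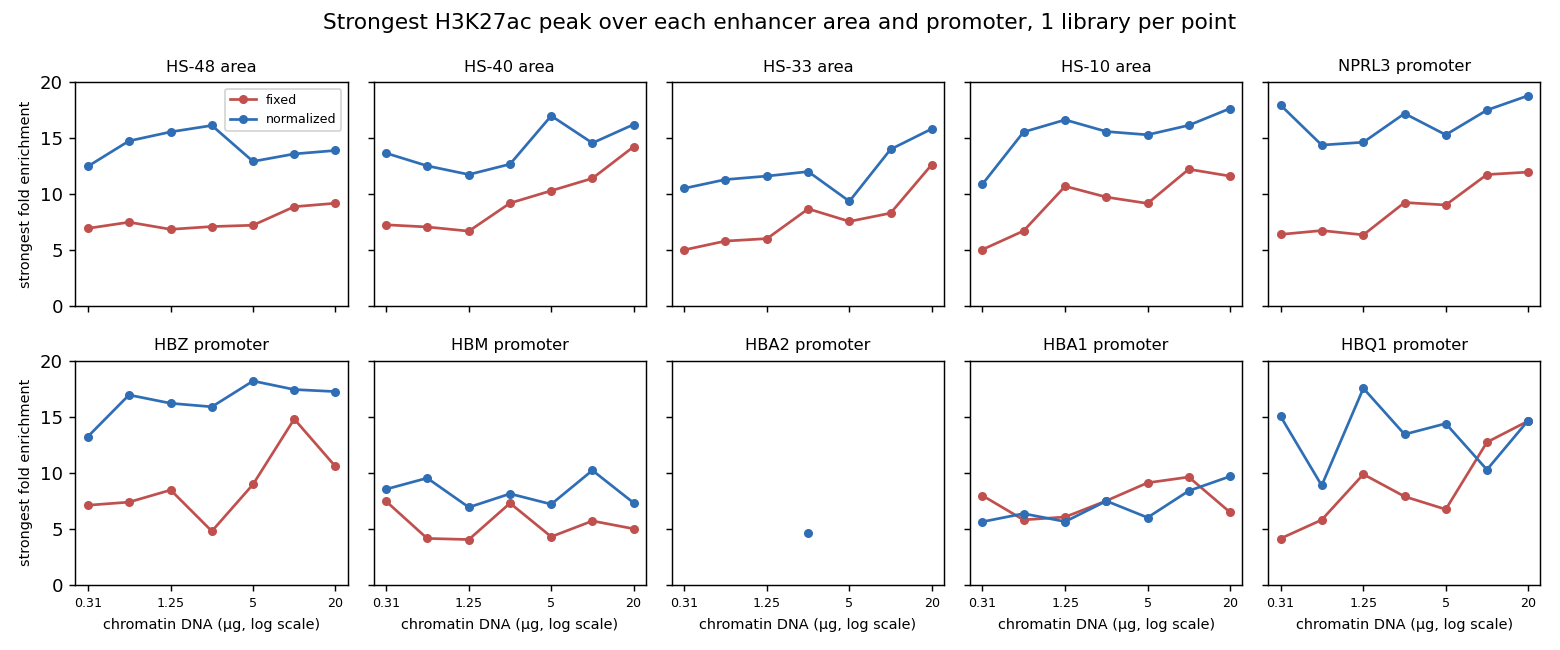
Fold enrichment of the strongest peak over each of the 4 enhancer areas and within 1 kb of each of the 6 TSSs, against chromatin DNA in µg on a log scale, 1 point per library, fixed arm red and normalized arm blue. HS-48 and NPRL3 show no overlap between the arms, HBA1 shows nearly complete overlap, and HBA2 has a peak in a single library.

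By median fold enrichment over the 14 lists the order was HBZ, the NPRL3 promoter, HS-40, HS-10, HBQ1, HS-48, HS-33, HBM and HBA1. Neighbours in this order differed by less than the spread of their difference over libraries, except HS-33 and HBM, where HS-33 was higher in 13 of 14 lists by 0.52 on the log2 scale (SD 0.45). The lowest member was HBM in 5 of the 7 fixed lists and HBA1 in 6 of the 7 normalized lists. The highest was NPRL3 in 4 and HBZ in 2 normalized lists, and HS-10 in 2 fixed lists.

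The 2 libraries of the same condition show how far single libraries can differ. Of the 9 tested members, 7 were higher in 10-T1b than in 10-T1a, with differences of -0.31 to 0.84 and a median of 0.40 on the log2 scale. Over all gene promoters the median of this difference was -0.05, with quartiles of -0.34 and 0.24, and over all 4 kb windows it was 0.01. The matched differences at the other amounts were therefore of a size that the arms also reached at equal titer for some members, HBM and HS-33 (0.75) among them.

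Genes around the window were read the same way. Of the 15 protein-coding genes with a TSS within 300 kb of HBZ and outside the window, 13 had a promoter peak in all lists, 10 of which fell with titer (beside 69.3% of all gene promoters), and none passed in the other 2 comparisons. Among the 10, POLR3K and SNRNP25 had the same values, as did RHBDF1 and MPG, so shared peaks were counted more than once. DECR2, a peroxisomal fatty acid oxidation enzyme, had the highest median fold enrichment of 14.2. PDIA2 had the lowest, 4.22 in the 6 lists with a peak, and RGS11 had no peak.

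Among 14 genes of the erythroid pathway, comprising the beta-like globin genes, the alpha chain chaperone and regulators of the cluster, 11 had a promoter peak in all lists and 10 of these (of a background of 69.3%) fell with titer. KLF1, an erythroid transcription factor, ranged from 7.70 to 22.6 and had r = -0.981 (exact permutation p = 0.000397, adjusted p = 0.00833). TAL1, which binds erythroid enhancers together with GATA1, ranged from 7.06 to 16.8 with r = -0.969 (exact permutation p = 0.000794, adjusted p = 0.00865). AHSP, the chaperone of free alpha chains, ranged from 3.58 to 8.85 with r = 0.224 (exact permutation p = 0.615, adjusted p = 0.628). The adult beta gene HBB had a peak in 6 lists, at 3.51 to 5.58, and the fetal genes HBG1 and HBG2, near-identical copies and thus uncertain, had one in all 14. Of the other beta-like genes, HBD had one in all 14 lists, at 3.54 to 13.7. HBE1 had one in 11 lists, at 3.56 to 5.80.

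The genes outside chromosome 16 whose promoter values over the 14 libraries were most like those of HBZ were GCN1 (Pearson r = 0.963), POLRMT (r = 0.957), MRM3 (r = 0.951), and MRPL36 and NDUFS6, which share a peak (r = 0.949). The median r of HBZ with all 9173 other genes was 0.593. The libraries share titers and arms, so these values only describe similarity.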

How the data were processed

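K562 chromatin was immunoprecipitated for H3K27ac in 14 reactions, 1 library each, grouped by the labels into 7 fixed and 7 normalized ones. The authors sequenced 51 bp from both ends, kept pairs with at least 1 uniquely mapped end and called peaks with MACS2 per library against the input of its arm. The submitters' processing notes name BWA 0.5.9 and CASAVA 1.4. The deposited fold enrichment of each peak is the ratio of its ChIP signal to local background, and the deposited -log10 q is its significance as MACS2 wrote it. The lists reach a -log10 q of 1.30, so peaks of at least 2 were used. The labels name hg38 and the paper hg19: gene starts within 1 kb of a peak of 10-T1b made up 55.8% by GRCh38 and 14.0% by GRCh37 coordinates, and positions were read as GRCh38. Read depth was not used here, since peak lists hold no reads.

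Gene positions came from RefSeq (GRCh38.p14) and strands from GENCODE by gene name. For each of the 19058 protein-coding genes found in both and each 4 kb window, the strongest peak was taken in each list. Features with a peak in all 14 lists were tested on log2(fold enrichment), so no pseudocount was needed. Fixed-arm trends with log2(titer) and normalized-arm trends with log2(DNA_chrom) used Pearson's r with all 5040 pairings (exact permutation, 2-sided). Matched differences used the 6 amounts with different titers and all 64 sign patterns, and slope differences all 128 swaps of arms. Benjamini-Hochberg adjustment ran over each table, and a call was an adjusted p of 0.05 or less. Genes were named as members, as genes of the pathway, marker and neighbour lists, or as the 5 most similar to HBZ outside the chromosome. The members and lists were chosen with earlier results of these data known. Some genes of the marker lists are not reported here. RefSeq promoter sequence was found for 2 of the 6 members. The tests ran in Python 3.11.15 with numpy 2.4.6 and scipy 1.17.1 and were tested on simulated data.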

Additional observations from a re-analysis of the deposited data

Results flagged for a closer look

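The HS-10 area in 0.31-T1 had a fold enrichment of 10.9, far below the other 6 normalized libraries, the nearest of which had 15.3. The gap was 0.653 of the range of the 7 libraries, above Dixon's critical value. Of 24 groups of 7 libraries examined, this was the 1 so far from the rest, and chance gives about 1 in 20.

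The number of peaks in the window changed with chromatin amount differently in the arms. Per doubling of DNA_chrom it was higher by 1.79 peaks in the fixed arm and the slope was -1.50 peaks in the normalized arm, a difference of -3.29 (exact permutation of arms within amounts, p = 0.0156, the smallest that 7 pairs allow, adjusted p = 0.0469 over the 3 window measures). Neither trend passed on its own. The difference rested on the smallest amount, where 0.31-T32 had 38 peaks: without the 0.31 µg libraries, an alternative chosen after seeing the data, the slopes were 0 and -1.40 peaks and their difference -1.40 (exact permutation p = 0.125 over 6 amounts).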

How the results depend on the processing

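Matched differences pair libraries by chromatin amount, and the numbers shared by the arms mark that amount only. No replicate block (all libraries of each arm at the 6 amounts, exact permutation) gave the same covered difference of 16.9 points with an adjusted p of 0.0446 and the same strongest-peak difference of 0.668 with an adjusted p of 0.0195, both now past 0.05.

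The covered-share trend of the fixed arm passed 0.05 with a -log10 q of at least 3 (r = -0.928), with the full deposited lists (-0.900), on linear scales (-0.837) and without the peak at MPG (-0.903), the last chosen after seeing the data. The strongest-peak trend passed with the full lists (-0.874) and without that peak (-0.946), and the peak number in the normalized arm with the full lists (-0.866). Relative to each whole list, the fixed covered trend shrank to -0.102 (exact permutation p = 0.817). The matched covered difference on that scale, a ratio and not percentage points, was 1.31 (exact sign-flip permutation p = 0.156). The normalized covered trend turned to -0.764 relative to the list and to -0.137 on linear scales, and the matched peak number to -0.294 relative to the list. With percentiles in place of fold enrichment, 0 gene promoters and 0 windows of 4 kb passed the fixed trend, and r turned to 0.0319 for HBZ, 0.411 for HBA1 and 0.831 for HS-48. For HBQ1 in the normalized arm r turned to -0.113 with percentiles and -0.0144 after division by the list median. The HBA1 matched difference turned to 0.633 with a 5 kb promoter window. The cause was not tested.

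Leaving out 1 library or amount at a time gave ranges of -0.972 to -0.859 (covered share, fixed), -0.280 to 0.840 (covered share, normalized), -3.4 to 2 (matched peak number), 3085 to 5172 promoters and 4507 to 10431 windows called in the fixed trend. Both lowest counts came without 20-T0.5. The direction was not stable for HBM (-0.338 to 0.376 fixed, -0.609 to 0.0761 normalized), HBQ1 (-0.472 to 0.239 normalized), HS-48 (-0.585 to 0.0800 normalized) and the HBA1 matched difference (-0.216 to 0.0206).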
